A study of Mus musculus with 4 samples.

Results

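The genes described here are 10 transcription factors of epidermal differentiation: the grainyhead-like factors Grhl1, Grhl2 and Grhl3, the Krüppel-like factors Klf4 and Klf5, the zinc finger proteins Ovol1 and Zfp750, the repressor Prdm1, and the Ets factors Elf3 and Ehf. They are a list of names chosen with earlier results of these data known, among 31733 genes with a value, and 9 of the 10 reached the level needed for a test, as did 12067 genes in all. RNA came from stem cells of primary mouse squamous cell carcinomas of the skin, a cancer of keratinocytes, which were depleted of other lineages, selected for integrin alpha6 and CD44 on their surface, and sorted by a fluorescent reporter of transforming growth factor beta (TGF-beta) signalling. The mCherry Pos fraction is labelled as having that signalling and the mCherry Neg fraction as lacking it, and each fraction gave 1 library in each of 2 experiments, so n = 2 in each group. All 4 libraries share the strain C57BL/6 X FBV and carry TetO-Hras together with the construct LV-rtTA3-TGF-beta reporter, so both fractions have the Hras transgene and the reporter. No source used here gives the animals' age or number, or any pooling. The comparison asked how expression differs between tumour stem cells with and without TGF-beta signalling.

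Keratinocytes leave the basal layer, stop dividing and build a cornified envelope, a protein shell sealed with lipids. Grainyhead-like factors bind the regulatory DNA of junction and barrier genes, Klf4 is needed for the skin barrier in mice, and Zfp750, Ovol1 and Prdm1 act at the step from proliferating to differentiating cells. Klf5 and Grhl2 are instead found widely in proliferating epithelium, and Elf3 and Ehf are Ets factors restricted to epithelia.

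Levels are FPKM, fragments of transcript scaled to its length and to the depth of the library. Being per length, they can be compared between genes, except where a gene's sum adds forms of unlike length, which can raise it. A difference is mCherry Pos minus mCherry Neg on the log2(FPKM + 1) scale, ± SE, where low genes appear to change less than they do in FPKM. Depth, as aligned gigabases computed from coverage over FPKM, was 3.54 and 3.28 in the mCherry Pos libraries and 3.12 and 3.74 in the mCherry Neg libraries. The genes of the sorting markers were present in all 4 libraries: Itga6 had 181 and 205 FPKM in mCherry Pos against 331 and 410 FPKM in mCherry Neg, and Cd44 had 88.0 and 81.3 against 81.5 and 112 FPKM. Of markers for other cells, Ptprc of leukocytes was at 0.362 FPKM or less and Pdgfra of fibroblasts at 0.444 FPKM or less in every library. The 9 fibroblast markers summed to 18.1 and 40.5 FPKM in mCherry Pos against 132 and 265 FPKM in mCherry Neg, of which Postn, a matrix protein, made 4.78 and 11.0 against 89.7 and 191 FPKM. Of 7 fibroblast markers tested, limma called 2 lower in mCherry Pos and 0 higher (2.61% and 2.59% of all genes tested). In value 5 of the 7 were lower in both experiments, and the median difference was -0.76, against -0.18 for all genes tested. The 13 leukocyte markers summed to 675 and 829 FPKM in mCherry Pos against 447 and 510 FPKM in mCherry Neg. Nearly all of that was Sdc1, a plasma cell marker that epithelia also express, at 660 and 799 against 416 and 461 FPKM. Without Sdc1 the direction was the opposite: in each experiment the rest of the sum was lower in mCherry Pos than in mCherry Neg. Endothelial markers summed to 2.82 and 2.90 against 4.72 and 10.7 FPKM, melanocyte markers to 0.494 and 0.981 against 0.998 and 1.0 FPKM, and sebocyte markers to 60.4 and 40.8 against 49.3 and 65.7 FPKM. The part of these cells in the results below was not tested, and in bulk RNA fewer cells expressing a gene and less RNA per cell cannot be told apart.

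Of the 9 tested factors, 5 were higher in mCherry Pos cells: Grhl3, Ovol1, Zfp750, Grhl1 and Klf4. The mean FPKM of Grhl3 in mCherry Pos was 5.82 times that in mCherry Neg, and those of the other 4 were 1.95 to 2.30 times as high. Elf3, Ehf, Grhl2 and Klf5 did not pass the test, and Prdm1 was too low to be tested. The test was limma on all 12067 genes, two-sided, with Benjamini-Hochberg adjustment and a threshold of 0.05. It called 2.59% of all genes higher and 2.61% lower in mCherry Pos (312 and 315 genes), and none of the 9 factors lower, either after adjustment or at an unadjusted p under 0.05. At an unadjusted p under 0.05, 6 of the 9 were higher. With the 2 experiments as blocks, Elf3 joined the 5 and 6 of the 9 were called higher (4.23% of all genes higher, 6.77% lower). Both mCherry Pos libraries lay above both mCherry Neg libraries for 6 of the 9 tested factors, against 15.2% of all genes tested, and below them for 2, Grhl2 and Klf5, against 42.6%. The median difference of the 9 factors was 0.96, and that of all genes tested was -0.18.

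Of the 5 calls only that of Grhl3 was kept when a library was left out, and only in 1 of the 4 cases. With mCherry Neg replicate 1 left out, 0 of the 9 factors passed (smallest adjusted p = 0.0675 by limma, 6 higher and 2 lower at an unadjusted p under 0.05), where 1.1% of all genes were called higher. Without mCherry Neg replicate 2 none passed (smallest adjusted p = 0.095, 6 higher at an unadjusted p under 0.05; 0.0166% of all genes). Without mCherry Pos replicate 1 only Grhl3 passed, with an adjusted p of 0.0406 (0.431% of all genes). Without mCherry Pos replicate 2 none passed (smallest adjusted p = 0.0691, 6 higher at an unadjusted p under 0.05; 0.215% of all genes). Over these 4 fits the differences were 2.17 to 2.64 for Grhl3, 0.95 to 1.41 for Ovol1, 1.10 to 1.24 for Zfp750, 0.97 to 1.19 for Grhl1 and 0.84 to 1.07 for Klf4. Median-of-ratios scaling moved the median of all genes from -0.18 to 0.01 and the split of all calls to 431 higher and 210 lower. Under that scaling Ovol1 had an adjusted p of 0.0503 and Elf3 one of 0.0429, so 5 factors were again called higher, and no factor changed sign.

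**Figure D1:**
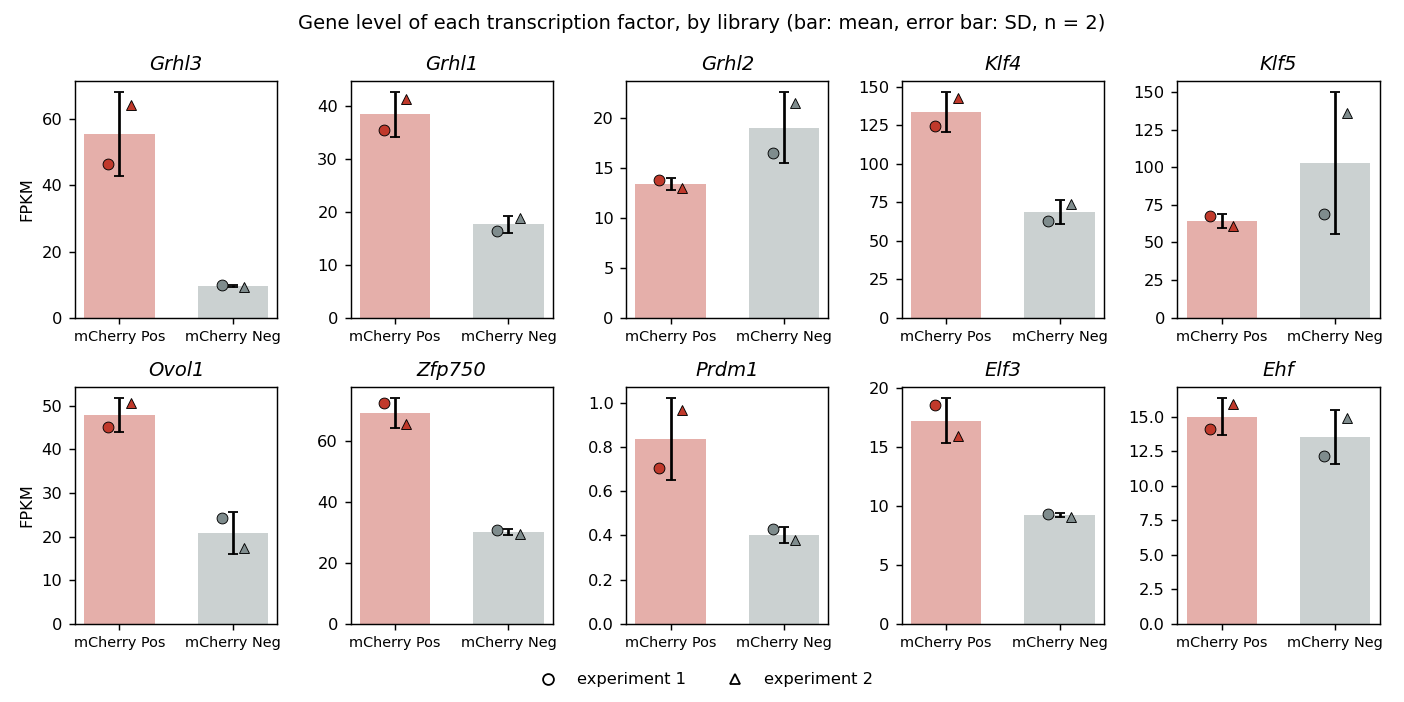
Level of each of the 10 factors in FPKM (vertical axis, from 0, a scale of its own in each panel), mCherry Pos left and mCherry Neg right. Bars are means, error bars SD over 2 libraries, circles experiment 1 and triangles experiment 2. The 2 fractions do not overlap for Grhl3 (46.5 and 64.5 against 9.83 and 9.26 FPKM), whereas they do for Ehf (14.1 and 15.9 against 12.1 and 14.9 FPKM).

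Grhl3, the grainyhead-like factor that mouse embryos need for epidermal barrier formation, lies on chromosome 4 (mm9, 135097803 to 135129545, minus strand; ENSMUSG00000037188). It had 46.5 FPKM in mCherry Pos replicate 1 and 64.5 FPKM in mCherry Pos replicate 2, against 9.83 and 9.26 FPKM in mCherry Neg. Both positive libraries were above both negative ones, and the spread between positive libraries (SD 12.7 FPKM) was wider than that between negative ones (SD 0.402 FPKM). The difference was 2.40 ± 0.20 (95% interval 1.88 to 2.93, limma adjusted p = 0.0130), with 2.13 in experiment 1 and 2.67 in experiment 2. The sum in mCherry Pos replicate 2 includes a partial form of 9 exons at 17.8 FPKM. With each transcript's FPKM multiplied by its length in kilobases, Grhl3 had 126 and 152 in mCherry Pos against 27.2 and 25.3 in mCherry Neg. Its mean FPKM exceeded that of 85.0% of all genes tested in mCherry Pos, against 44.3% in mCherry Neg.

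Grhl1, a relative that regulates desmosomal cadherins in mouse skin, lies on chromosome 12 (mm9, 25257152 to 25302256, plus strand; ENSMUSG00000020656). It had 35.4 and 41.3 FPKM in mCherry Pos against 16.4 and 18.8 FPKM in mCherry Neg, without overlap. Its difference was 1.08 ± 0.16 (95% interval 0.66 to 1.5, limma adjusted p = 0.0369), close to the same in both experiments at 1.07 and 1.10. Its annotated transcript from a downstream start was listed at 0 in every library. The one from the upstream start, ENSMUST00000085553, held all of the gene's FPKM in 3 libraries and 82.9% in mCherry Neg replicate 1, where an assembled form held the rest.

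Grhl2, the grainyhead-like factor of many simple epithelia, went the other way in value. It had 13.8 and 13.0 FPKM in mCherry Pos against 16.5 and 21.5 FPKM in mCherry Neg (chromosome 15, mm9, 37162791 to 37293324, plus strand; ENSMUSG00000022286). The positive libraries were both below the negative ones, but the difference of -0.46 ± 0.19 did not pass (95% interval -0.95 to 0.02, limma adjusted p = 0.208). Gm16136, an opposite-strand gene that shares 169 exonic bases with Grhl2 at its start, had 24.5 and 47.3 FPKM in mCherry Pos against 21.7 and 20.9 FPKM in mCherry Neg. No source used here says whether the counting used strand, so reads in those shared bases cannot be told apart.

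The make-up of the grainyhead-like family therefore differed between the fractions in value. Grhl3 held 48.6% and 54.3% of the summed FPKM of the 3 genes in mCherry Pos, against 23.0% and 18.7% in mCherry Neg. Grhl2 held 14.4% and 10.9% in mCherry Pos against 38.6% and 43.4% in mCherry Neg. The share of Grhl1 was 37.0% and 34.8% against 38.4% and 37.9%. These shares follow from the levels above and were not tested separately.

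Klf4, a zinc finger factor of the suprabasal epidermis, had the highest level of the 10 in mCherry Pos, at 125 and 143 FPKM, against 63.0 and 74.0 FPKM in mCherry Neg (chromosome 4, mm9, 55540013 to 55545347, minus strand; ENSMUSG00000003032). The groups did not overlap. The difference of 0.96 ± 0.16 passed (95% interval 0.55 to 1.36, limma adjusted p = 0.0441), with 0.97 in experiment 1 and 0.94 in experiment 2.

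The promoters of Grhl3, Grhl1 and Klf4 are shown because these 3 factors rose together and have a RefSeq promoter window, 250 bases before to 50 after the start (5 of the 10 factors matched the RefSeq table, build GRCm38.p6; the other 2 matches were Prdm1 and Elf3). Capitals mark GGGCGG, the GC box bound by Sp and Krüppel-like factors, and CACCC, a second Krüppel-like motif, each on either strand. The Grhl1 window is that of the start of ENSMUST00000085553.
Grhl3 chr4:135573583-135573882 (minus strand): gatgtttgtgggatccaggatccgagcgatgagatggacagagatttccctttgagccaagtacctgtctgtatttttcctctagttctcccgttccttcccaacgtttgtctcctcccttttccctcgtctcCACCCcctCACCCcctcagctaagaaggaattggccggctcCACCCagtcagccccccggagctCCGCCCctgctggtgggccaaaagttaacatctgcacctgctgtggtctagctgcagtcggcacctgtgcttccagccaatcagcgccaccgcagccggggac
Grhl1 chr12:24572037-24572336 (plus strand): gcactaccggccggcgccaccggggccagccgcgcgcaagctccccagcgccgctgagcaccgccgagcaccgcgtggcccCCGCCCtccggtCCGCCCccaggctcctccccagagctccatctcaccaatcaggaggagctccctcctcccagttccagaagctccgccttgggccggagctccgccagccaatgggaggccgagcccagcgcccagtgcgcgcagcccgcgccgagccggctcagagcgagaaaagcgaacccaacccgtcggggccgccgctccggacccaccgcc
Klf4 chr4:55532426-55532725 (minus strand): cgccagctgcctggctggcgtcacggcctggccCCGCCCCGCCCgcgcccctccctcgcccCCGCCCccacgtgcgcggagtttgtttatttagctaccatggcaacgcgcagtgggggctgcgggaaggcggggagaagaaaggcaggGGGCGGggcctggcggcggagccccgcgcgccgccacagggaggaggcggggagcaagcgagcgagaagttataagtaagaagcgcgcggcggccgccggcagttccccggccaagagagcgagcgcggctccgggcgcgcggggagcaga
Klf4 held 4 GC boxes, 2 of them overlapping, Grhl1 held 2 and Grhl3 held 1, and 35.7% of all 32851 promoter windows in the table held at least 1. Grhl3 held 3 CACCC matches, Grhl1 and Klf4 none, and 57.5% of all windows held at least 1. No base belonged to both motifs. The grainyhead motif AACCNGTT was in none of the 3 windows and in 2.09% of all windows. GTCTG, a core of Smad binding sites, was found once in Grhl3 and not in Grhl1 or Klf4, against 49.6% of all windows. The Ets motif AGGAAG (35.4% of all windows) and the AP-1 motif TGANTCA (7.81%) were in none of the 3. Another Grhl1 window, at a downstream start and not shown, held 2 CACCC, 1 Ets and 1 GTCTG match. Of the windows not shown, that of Elf3 held 2 CACCC and 1 GTCTG match, and that of Prdm1 held 3 GTCTG, 1 AP-1 and 1 Ets match. A match describes these letters only.

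Klf5, the Krüppel-like factor of proliferating basal cells, had 67.3 and 60.8 FPKM in mCherry Pos against 69.2 and 136 FPKM in mCherry Neg (chromosome 14, mm9, 99697910 to 99712624, plus strand; ENSMUSG00000005148). The values of mCherry Pos were both lower, but mCherry Neg replicate 1 exceeded the nearer of them by less than the spread between positive libraries (SD 4.56 FPKM). The difference of -0.59 ± 0.34 did not pass (95% interval -1.46 to 0.28, limma adjusted p = 0.331), and it was -0.04 in experiment 1 and -1.15 in experiment 2. In 3 libraries Klf5 was 1 assembled form of 3353 to 3476 bases whose last exon ran past the annotated 3′ end, against 1721 bases in the annotated transcript. In mCherry Neg replicate 2 its FPKM was divided between the annotated form (66.5 FPKM) and a 2-exon assembled form of 2210 bases (69.6 FPKM), and both count in its sum. With each transcript's FPKM multiplied by its length in kilobases, so that splitting a gene into forms does not inflate its sum, Klf5 had 234 and 204 in mCherry Pos against 236 and 268 in mCherry Neg, a difference of -0.20 ± 0.15 (limma adjusted p = 0.426). Klf4 held 64.9% and 70.1% of the summed FPKM of Klf4 and Klf5 in mCherry Pos, against 47.7% and 35.2% in mCherry Neg. On the scale multiplied by length its share was 61.8% and 67.1% in mCherry Pos against 44.7% and 45.5% in mCherry Neg.

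Zfp750, whose human counterpart ZNF750 drives terminal differentiation of keratinocytes, had 72.4 and 65.6 FPKM in mCherry Pos against 30.8 and 29.4 FPKM in mCherry Neg (chromosome 11, mm9, 121372292 to 121380647, minus strand; ENSMUSG00000039238). The groups were well apart, and the difference of 1.17 ± 0.14 passed (95% interval 0.82 to 1.52, limma adjusted p = 0.0230), with 1.21 in experiment 1 and 1.13 in experiment 2. It was the second most abundant of the 10 factors in mCherry Pos and the third in mCherry Neg.

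Ovol1, a zinc finger repressor that restrains the growth of keratinocytes in mice, had 45.1 and 50.6 FPKM in mCherry Pos against 24.2 and 17.4 FPKM in mCherry Neg (chromosome 19, mm9, 5549137 to 5560575, minus strand; ENSMUSG00000024922). The groups did not overlap, and the difference was 1.18 ± 0.20 (95% interval 0.66 to 1.70, limma adjusted p = 0.0474), with 0.87 in experiment 1 and 1.49 in experiment 2. On the scale multiplied by length Ovol1 had 127 and 138 against 56.7 and 50.5, a difference of 1.29 ± 0.14 (limma adjusted p = 0.0251). Its annotated 4-exon form had 34.9 and 36.8 FPKM in mCherry Pos against 9.12 and 15.5 FPKM in mCherry Neg. A form without exon 2 was assembled at 10.2 FPKM in mCherry Pos replicate 1, 5.99 FPKM in mCherry Neg replicate 1 and 1.84 FPKM in mCherry Neg replicate 2. Forms with another 5′ end differed between the fractions in structure. That in mCherry Pos replicate 2, at 13.8 FPKM, had 3 exons, lacked the first exon and held no new junction. That in mCherry Neg replicate 1, at 9.09 FPKM, had 4 exons and another first exon, with a junction that the annotated form lacks.

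Prdm1, also called Blimp1, a repressor of the upper epidermal layers and of B cells, was barely detected. It had 0.705 and 0.966 FPKM in mCherry Pos against 0.429 and 0.378 FPKM in mCherry Neg (chromosome 10, mm9, 44156983 to 44248307, minus strand; ENSMUSG00000038151). The positive libraries were both higher, but no library reached the 1 FPKM that a test required, and the deposited intervals of its transcripts spanned 23.6% to 74.2% of the value on either side. Cd79a, a B cell gene, was at 0.0247 FPKM or less in every library. Cd79a does not cover other leukocytes, and the part of any leukocytes in the value of Prdm1 was not tested. With no filter on low values the difference of Prdm1 of 0.38 ± 0.11 had an adjusted p of 0.217 by limma. On the scale multiplied by length, where it reached the filter, Prdm1 had 3.49 and 4.62 in mCherry Pos against 1.85 and 1.48 in mCherry Neg. The difference there was 0.92 ± 0.24 and did not pass either (limma adjusted p = 0.111).

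Elf3, an Ets factor that activates envelope genes in human keratinocytes, had 18.5 and 15.9 FPKM in mCherry Pos against 9.32 and 9.06 FPKM in mCherry Neg (chromosome 1, mm9, 137150151 to 137155049, minus strand; ENSMUSG00000003051). The groups did not overlap. The difference of 0.83 ± 0.17 missed the threshold (95% interval 0.40 to 1.26, limma adjusted p = 0.0607) and passed with the 2 experiments as blocks (adjusted p = 0.0429).

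Elf3 was the factor whose difference lay in 1 transcript form. The annotated transcript, ENSMUST00000003135, was nearly level, with 9.10 and 9.06 FPKM in mCherry Pos against 9.32 and 9.06 FPKM in mCherry Neg. A form assembled in both mCherry Pos libraries, at 9.45 and 6.82 FPKM, made 50.9% and 42.9% of the gene there, and no such form was assembled in the mCherry Neg libraries. It joined exon 2 to a point 60 bases into exon 3 of 9, so that exon 3 kept 222 of its 282 bases (mm9 chromosome 1, 137153804 to 137153863 absent). Those 60 bases lie within the coding sequence and have the length of 20 codons. The same junction is annotated in ENSMUST00000185752 of GENCODE M21. From reference transcripts alone the difference of Elf3 was -0.02 (limma adjusted p = 0.976). The first 90 bases of exon 3, positions 389 to 478 of ENSMUST00000003135 in GENCODE M21, are shown with the 60 bases that the assembled form lacked in capitals.
Elf3 exon 3: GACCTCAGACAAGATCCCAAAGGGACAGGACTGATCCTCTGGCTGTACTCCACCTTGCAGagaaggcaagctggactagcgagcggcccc
How reads were divided between forms that share most of their bases is an estimate of the authors' software, and a form not assembled in a library is not shown to be absent from it.

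In Grhl3 a much smaller splice difference was seen in both fractions. Forms that skip the first 3 bases of exon 11 of 16 (mm9 chromosome 4, 135107795 to 135107797, within the coding sequence) made 43.3% and 27.6% of Grhl3 FPKM in mCherry Pos, against 29.0% and 45.8% in mCherry Neg, so the ranges of the fractions overlapped. Forms that keep these bases had 26.4 and 46.7 FPKM in mCherry Pos against 6.97 and 5.02 FPKM in mCherry Neg, and those without them 20.2 and 17.8 against 2.85 and 4.24 FPKM. The form without them in mCherry Pos replicate 2 was a partial one of 9 exons. Both kinds were thus higher in value in mCherry Pos. The first 33 bases of exon 11, positions 1492 to 1524 of ENSMUST00000105855 in GENCODE M21, are shown with the optional bases in capitals.
Grhl3 exon 11: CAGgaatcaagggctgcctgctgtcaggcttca

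**Figure D2:**
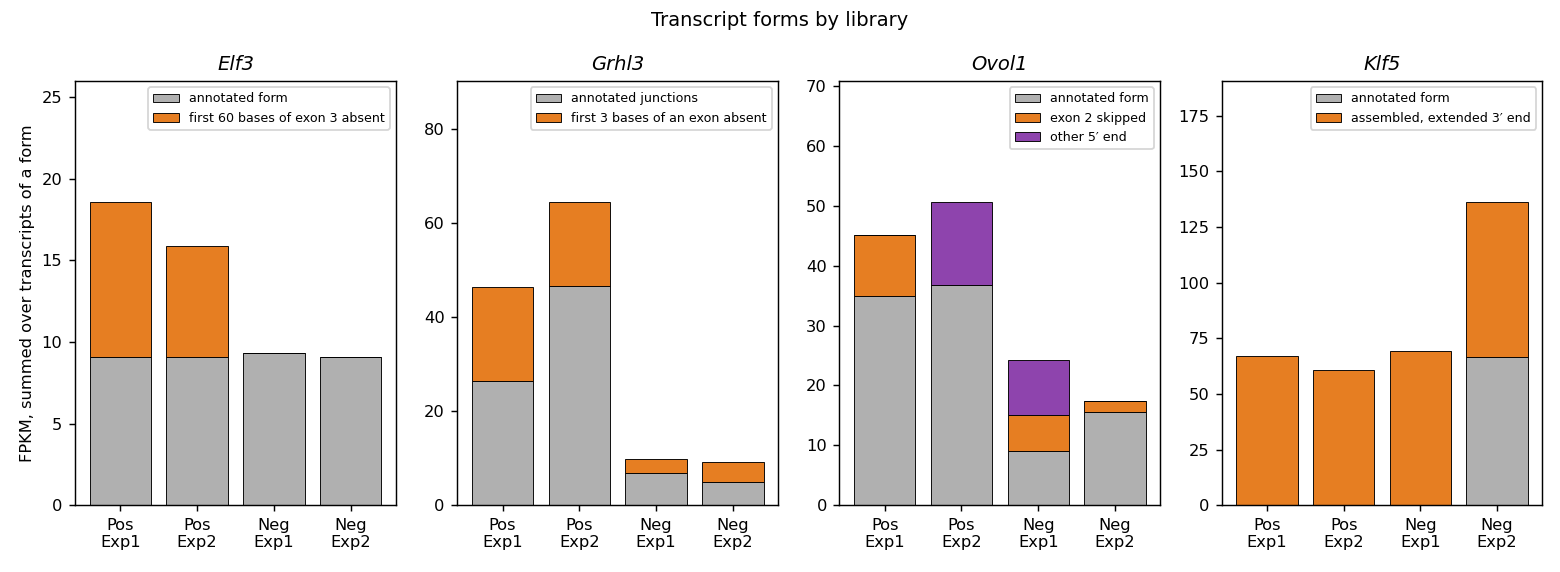
FPKM summed over transcripts of a form (vertical axis, from 0) in each library (mCherry Pos left, mCherry Neg right; Exp1 and Exp2 are the experiments) for Elf3, Grhl3, Ovol1 and Klf5. Elf3's annotated form stood at 9.06 to 9.32 FPKM in all 4 libraries with a second form on top in mCherry Pos, and Klf5 was split into 2 forms in mCherry Neg replicate 2. For Ovol1, the label of another 5′ end covers unlike structures in mCherry Pos replicate 2 and mCherry Neg replicate 1.

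Ehf, the other epithelial Ets factor, had 14.1 and 15.9 FPKM in mCherry Pos against 12.1 and 14.9 FPKM in mCherry Neg (chromosome 2, mm9, 103103590 to 103143435, minus strand; ENSMUSG00000012350). The groups overlapped, and the difference of 0.14 ± 0.18 did not pass (95% interval -0.32 to 0.61, limma adjusted p = 0.662), an interval that still holds changes in either direction.

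**Figure D3:**
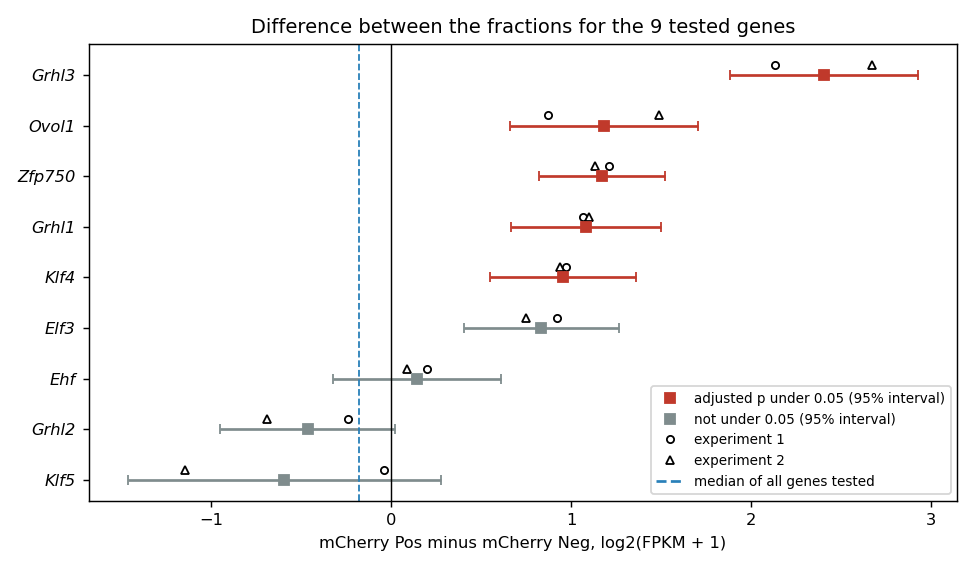
Difference between mCherry Pos and mCherry Neg on the log2(FPKM + 1) scale (horizontal axis) for the 9 tested factors. Squares are the fitted differences with 95% intervals, circles and triangles the differences within experiments 1 and 2, and the dashed line the median of all genes tested, -0.18. Grhl3 stands at 2.40, Ovol1, Zfp750, Grhl1 and Klf4 lie between 0.96 and 1.18, and both experiments agree in sign for all 9.

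The order of the levels differed between the fractions. In mCherry Pos it ran Klf4, Zfp750, Klf5, Grhl3, Ovol1, Grhl1, Elf3, Ehf, Grhl2 and Prdm1, with means of 134, 69.0, 64.1, 55.5, 47.8, 38.4, 17.2, 15.0, 13.4 and 0.836 FPKM. Neighbours whose libraries overlapped were Zfp750 and Klf5, Klf5 and Grhl3, Grhl3 and Ovol1, and Elf3 and Ehf. In mCherry Neg it ran Klf5, Klf4, Zfp750, Ovol1, Grhl2, Grhl1, Ehf, Grhl3, Elf3 and Prdm1, with means of 103, 68.5, 30.1, 20.8, 19.0, 17.6, 13.5, 9.55, 9.19 and 0.404 FPKM. There the overlapping neighbours were Klf5 and Klf4, Ovol1 and Grhl2, Grhl2 and Grhl1, and Grhl3 and Elf3. Grhl3 thus ranked 4 in mCherry Pos and 8 in mCherry Neg. The mean of Klf5 in mCherry Neg rests partly on replicate 2 (136 FPKM, against 69.2 FPKM in replicate 1), where separate forms were summed.

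Genes with the most similar pattern over the 4 libraries were found by the Euclidean distance between centred log2(FPKM + 1) values, among 7022 genes. The 2 nearest to Grhl3 were Dsc2, a desmosomal cadherin, at a distance of 0.138, and Cldn4, a tight junction claudin, at 0.182. Dsc2 had 143 and 190 FPKM in mCherry Pos against 27.8 and 28.2 FPKM in mCherry Neg. The nearest to Grhl1 were Tmem154 (0.0546) and Atp2c2 (0.0612), to Klf4 Epb41l5 (0.0512) and Idi1 (0.0575), and to Zfp750 Smagp (0.0549) and Slc9a3r1 (0.0854). Fam25c was the nearest to Ovol1 (0.0158), followed by Tmigd1 (0.0934). For the factors that did not pass, the nearest were Sncg (0.0587) and Ptprz1 (0.0597) for Elf3, Wbp2 (0.0218) for Ehf, Cpsf1 (0.0129) and Arl6ip6 (0.0293) for Grhl2, and Rxrb (0.0901) for Klf5. The pattern of Klf5 rests partly on mCherry Neg replicate 2, where separate forms were summed. With 4 libraries many genes share a pattern by their 2 groups alone.

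Other transcription factors of epidermal stratification and differentiation did not move as a group in value. Of 18 tested, 1 rose and 1 fell, where 2.59% of all genes tested were higher and 2.61% lower. Their median difference was -0.09, against -0.18 for all genes tested. Ppard, a nuclear receptor for fatty acids, had 76.7 and 75.9 FPKM in mCherry Pos against 36.5 and 43.8 FPKM in mCherry Neg (0.92 ± 0.15, limma adjusted p = 0.0438). Gata3, a zinc finger factor of epidermis and hair follicle, had 2.74 and 3.17 FPKM in mCherry Pos against 9.54 and 16.4 FPKM in mCherry Neg (-1.78 ± 0.29, limma adjusted p = 0.0440). Trp63, the gene of p63, the master factor of stratified epithelium, had 72.0 and 73.8 against 102 and 128 FPKM, and Cebpa, a factor of growth arrest, 62.6 and 58.7 against 33.0 and 39.4 FPKM. Neither passed (limma adjusted p = 0.0954 and 0.0662), and both did with the experiments as blocks (0.0489 and 0.0461). With blocks 2 of the 18 were higher and 3 lower (4.23% and 6.77% of all genes). Notch1 had 7.64 and 7.70 against 11.1 and 17.0 FPKM and Notch3 8.27 and 8.62 against 3.78 and 5.62 FPKM, and neither passed.

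Among 23 relatives of the 10 factors in the same families, 19 were tested. Limma called 1 higher and none lower (2.59% and 2.61% of all genes tested), and 3 were lower at an unadjusted p under 0.05. The median difference was -0.09, against -0.18 for all genes tested. The 1 called was Elf5, an Ets factor close to Elf3 and Ehf, with 2.42 and 2.76 FPKM in mCherry Pos against 0.222 and 0.113 FPKM in mCherry Neg. Elf5 reached the 1 FPKM filter only through mCherry Pos, where it is high, so its call is no support for a change in this list, and with a minimum of 5 FPKM it left the test and no relative was called. Klf9 had 0.760 and 1.18 FPKM against 2.68 and 4.67 FPKM (limma adjusted p = 0.0856, and 0.0340 with blocks). Klf3, Klf10, Elf2 and Ubp1, a grainyhead relative, did not pass: Klf3 had 29.7 and 28.4 against 18.0 and 21.6 FPKM, Klf10 48.7 and 42.7 against 35.0 and 34.7 FPKM, Elf2 14.2 and 17.1 against 20.2 and 26.7 FPKM, and Ubp1 8.16 and 10.3 against 12.6 and 17.6 FPKM. Ovol2, the relative of Ovol1, was level in value at 3.99 and 3.41 against 3.99 and 3.92 FPKM.

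Genes described as targets of grainyhead-like factors in epithelia include junction and envelope genes. Of 12 tested, 4 rose and none fell by limma (2.59% and 2.61% of all genes tested), and none fell at an unadjusted p under 0.05. The median difference was 0.64, against -0.18 for all genes tested. In value 9 of the 12 were higher in both experiments and 3 lower in both. Both mCherry Pos libraries lay above both mCherry Neg libraries for 6 (15.2% of all genes) and below them for 1 (42.6%). Tgm1, the envelope transglutaminase, had 68.2 and 75.0 FPKM in mCherry Pos against 10.5 and 8.44 FPKM in mCherry Neg (2.80 ± 0.17, limma adjusted p = 0.00733). Cldn4 had 22.9 and 28.9 against 4.46 and 3.47 FPKM (2.43 ± 0.21, limma adjusted p = 0.0134). Nectin4, a cell adhesion protein, had 30.2 and 37.7 against 9.45 and 10.1 FPKM (limma adjusted p = 0.0176), and Rab25, a small GTPase of recycling endosomes, 394 and 374 against 173 and 155 FPKM (limma adjusted p = 0.0237). Dsg1b, a desmoglein, had 46.5 and 99.7 against 24.1 and 26.2 FPKM and did not pass (limma adjusted p = 0.103, and 0.0421 with blocks). Tgm5, another transglutaminase, had 4.16 and 5.66 against 2.32 and 2.11 FPKM and did not pass (limma adjusted p = 0.0944).

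Late differentiation genes of the envelope and barrier lipids, a list that shares Tgm1, Tgm5 and Dsg1a with the targets above, were mostly higher. Of 30 tested, 18 were called higher and 1 lower, against 2.59% and 2.61% of all genes tested. The median difference was 2.04, against -0.18 for all genes tested. Besides Tgm1 and Dsc2, the smallest p-values were those of Tgm3, a second transglutaminase, with 585 and 690 FPKM in mCherry Pos against 93.4 and 111 FPKM in mCherry Neg, and of Elovl4, which elongates very long fatty acids, with 94.7 and 109 against 21.0 and 18.1 FPKM. Pla2g4e, a phospholipase, had 27.2 and 34.8 against 3.88 and 4.15 FPKM, and Cyp4f39, an enzyme of barrier ceramides, 42.0 and 46.4 against 10.5 and 9.20 FPKM. Differences of these 4 were 2.06 to 2.66 (limma adjusted p = 0.00858 to 0.0106). Aloxe3, a lipoxygenase and 1 of the 18, had 5.05 and 5.25 against 0.589 and 0.534 FPKM and reached the filter only through mCherry Pos. The 1 gene called lower, Dsc1, was listed at 0 in both mCherry Pos libraries against 4.57 and 6.41 FPKM in mCherry Neg and reached the filter only through mCherry Neg. A listed 0 can be a failed estimate, and with genes listed at 0 left out, or with a minimum of 5 FPKM, Dsc1 left the test and no gene of the list was called lower. Aloxe3 and Dsc1 were named after their values were seen.

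Of transcription factors of the progenitor state and of mesenchymal transition, 17 of 22 were tested. Among these 1 was called higher and 2 lower (2.59% and 2.61% of all genes tested), and the median difference was -0.42, against -0.18 for all genes tested. Pitx1, a homeobox factor, had 40.4 and 48.7 FPKM in mCherry Pos against 5.33 and 7.23 FPKM in mCherry Neg (2.65 ± 0.21, limma adjusted p = 0.0115). Id3, an inhibitor of basic helix-loop-helix factors, had 18.0 and 17.6 against 36.1 and 37.2 FPKM (-1.0 ± 0.13, limma adjusted p = 0.0312), and Lhx2, a hair follicle stem cell factor, 0.283 and 0.125 against 1.86 and 1.55 FPKM. Lhx2 reached the 1 FPKM filter only through mCherry Neg, where it is high, and with a minimum of 5 FPKM it left the test and 1 gene of the list was called lower. Snai2 had 19.0 and 17.3 against 43.8 and 30.7 FPKM, Myc 41.4 and 32.5 against 65.3 and 58.0 FPKM, and Tcf7l2 1.32 and 1.47 against 2.68 and 2.97 FPKM. None of these 3 passed, and Snai2 and Myc did with blocks (limma adjusted p = 0.0320 and 0.0352). With blocks 2 of the 17 were higher and 5 lower (4.23% and 6.77% of all genes). Zeb1, Zeb2, Snai1, Twist2 and Prrx1, the 5 factors not tested, were below 1 FPKM in at least 3 libraries.

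**Figure D4:**
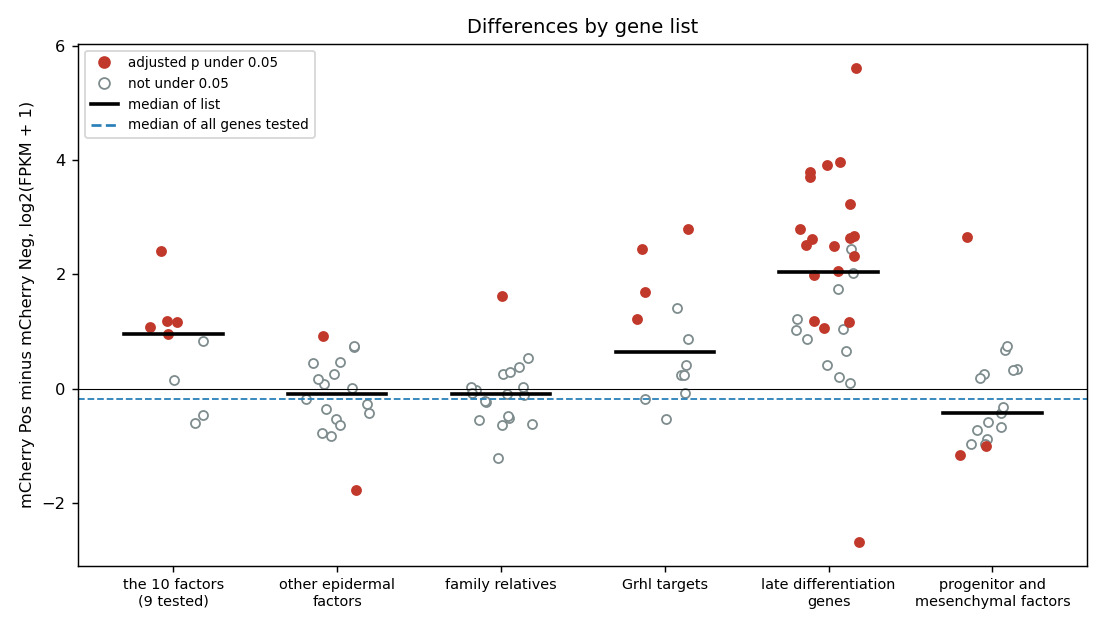
Differences on the log2(FPKM + 1) scale (vertical axis, mCherry Pos minus mCherry Neg) for the tested genes of 6 lists. Each point is a gene, filled where the adjusted p was under 0.05, black bars are list medians and the dashed line is the median of all genes tested (-0.18). The 10 factors have a median of 0.96 over the 9 tested and late differentiation genes one of 2.04, whereas other epidermal factors and family relatives lie around -0.09.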

How the data were processed

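RNA from sorted tumour stem cells was prepared with an mRNA kit from Illumina, per the labels. Reads were aligned by the authors with TopHat and transcripts estimated with Cufflinks (mm9), per the submitters' processing notes, in versions that no source used here gives. Deposited files list FPKM per transcript with an interval, read coverage and a score that was not used, per the file headers. Since the authors' FPKM is scaled to depth and length, it was not tested as counts.

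Genes were rebuilt with Python 3.11.15 and pandas 2.3.3 by summing FPKM over transcripts of at least 200 exonic bases. Of 96734 reference transcripts, 84077 got their gene from GENCODE M21 by identifier (names only, as its build differs), and 5109 by the gene identifier in the files. Assembled and unnamed transcripts went to the gene with which they shared most introns or, sharing none, to the gene of the same strand holding at least 50% of their bases. Shorter transcripts, which carried 95.1% to 98.9% of all FPKM, had values within the interval deposited beside them in 10.8% to 15.5% of cases, and longer ones in 94.6% to 95.0%. Deposited intervals reached 2.43% to 12.0% of the value on either side for the main transcript of each tested factor, which covers counting error only. The number of reads is unknown.

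The test took genes that reached 1 FPKM in 2 or more libraries and used limma 3.58.1 in R 4.3.3 (lmFit and trended eBayes) on log2(FPKM + 1), with Benjamini-Hochberg adjustment over all of them. The fit was also run on simulated data without shared deviations of same-numbered libraries, and no result here rests on that. An exact 0 in 1 or more libraries was listed for 457 tested genes, which can be a failed estimate. Both fractions of an experiment carry its number in the titles, and deviations of same-numbered libraries correlated with Pearson's r 0.185 across genes, so a fit with experiments as blocks was an alternative beside pseudocounts, filters, scalings, gene values, variance estimation and leaving out each library. No label says that the experiments used separate animals, and p-values then cover only the spread between these libraries.

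The factors and the other lists were chosen with earlier results of these data known. Named genes were the 10 factors, up to 6 genes with the smallest p in each other list, and the 2 genes nearest in pattern to each tested factor, above 0 in all libraries with a mean of at least 5 FPKM. Promoters are RefSeq's (GRCm38.p6) and exon sequences GENCODE M21's, and no coordinates were converted. The keratins Krt5 and Krt14 were not analysed here, and a few genes that the rule would name are not reported here.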

Additional observations from a re-analysis of the deposited data

Results flagged for a closer look

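An assembled single-exon transcript on the plus strand overlapped the start of Grhl2 in mCherry Pos replicate 1 (mm9 chromosome 15, 37161484 to 37162975, 1492 bases) at 11.9 FPKM, with a deposited interval of 9.88 to 12.4. It lay mostly outside Grhl2's exons, so it entered no gene value, and no transcript of this kind was assembled over Grhl2 in the other 3 libraries. The opposite-strand gene Gm16136 covers part of the same stretch, and the part of strand assignment in this value was not tested.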

How the results depend on the processing

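With the 2 experiments as a replicate block, 510 genes were higher and 817 lower, and 10 genes of the other lists were lower against 4; Elf3 was the only one of the 9 factors whose call changed. With no filter on low values 3 genes were higher and 1 lower, and 0 of the factors and 0 and 0 of the list genes passed by limma (7 factors higher at an unadjusted p under 0.05). Reference transcripts alone gave 43 higher and 32 lower, with 0 factors and 4 and 0 list genes (5 factors at an unadjusted p under 0.05). The most abundant transcript per gene gave 31 and 23, with 0 factors (again 5 at an unadjusted p under 0.05) and 3 and 0 list genes. Both of these turned the difference of Elf3 to -0.0161 against 0.83, because its second form was then not counted, and none of the other 7 factors tested there reversed; Klf5 was not tested under either. A pseudocount of 0.1 left 3 factors called (Klf4 and Ovol1 lost), and a pseudocount of 5 or a minimum of 5 FPKM left 2 list genes lower. Leaving out genes listed at 0 gave 739 lower, and robust variance estimation 573. Both also called Elf3 higher (limma adjusted p = 0.0356 and 0.0440). Quantile normalization called Elf3 as well (limma adjusted p = 0.0495) and lost Ovol1 (0.0610), so the call of Ovol1, like that of Elf3, depended on the processing. With 1 library left out, with the remaining single library assumed as variable as the other pair, genes higher numbered 2 to 133 and lower 1 to 71, factors higher 0 to 1, and list genes higher 0 to 13 and lower 0 to 1 (main values 312, 315, 5, 24 and 4). Chosen after seeing the data were placement by 50% of bases only, under which Klf5 had no placed form in mCherry Pos replicate 1 and a difference of -3.13 (adjusted p = 0.364), and FPKM multiplied by length; each kept 5 factors higher. Having 2 libraries per group limits every call, and differences near that of Elf3 lie at the threshold.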
